A study of Mus musculus with 6 samples.

Results

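Polycystic kidney disease genes and genes of the primary cilium, 8 in all, were followed in cultured kidney tubule cells: Pkd1, Pkd2, Pkhd1, Bicc1, Cys1, Ift88, Kif3a and Tmem67. They were chosen by symbol, and each was found once among the 46517 genes in the count files, so all 8 genes were measured and all 8 entered the test. The samples were primary cultures of renal tubule epithelial cells (RTECs) from the kidneys of wild type FvB mice aged 4 to 6 weeks. All cultures were grown with 10% fetal bovine serum and 20 ng/ml EGF and then held in serum-free medium for 24 h. Of these, 3 were kept as controls (CTL) and 3 received 50 ng/ml TGF-β1 for a further 24 h, and mRNA was sequenced from each. The labels do not say whether the 3 cultures of a group came from separate animals, so p-values measure the spread between these cultures only. The age is that of the labels, and the study's methods give a younger range.

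The primary cilium is a single antenna on the apical face of most tubule cells, built and maintained by motors that carry cargo along its microtubules. Polycystin-1 and polycystin-2, the products of Pkd1 and Pkd2, form a receptor and channel complex on it, and mutation of either causes autosomal dominant polycystic kidney disease. Fibrocystin, from Pkhd1, is the protein of the recessive disease. Loss of cystin (Cys1), of the RNA-binding protein bicaudal C (Bicc1), of the transport proteins polaris (Ift88) and kinesin-II (Kif3a), or of meckelin (Tmem67) gives cystic kidneys in mice.

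In these cultures 6 of the 8 transcripts were lower in every TGF-β1 culture than in every CTL culture: Cys1, Pkhd1, Bicc1, Ift88, Kif3a and Tmem67. Over all 15862 tested genes, 18.0% were lower without overlap and 35.1% had no overlap in either direction. Only Cys1 of the 8 passed an adjusted p-value of 0.05 in the unpaired edgeR fit, where 6.69% of tested genes were called lower and 5.00% higher. The labels state no pairing, and the replicate numbers were taken as pairs from correlations in these same data, given below. With the replicate number as a block 5 of the 8 were called lower (Cys1, Pkhd1, Bicc1, Ift88 and Kif3a) against 19.1% of tested genes. At an unadjusted p-value under 0.05 the unpaired fit held 6 of the 8, all lower, against 28.6% of tested genes in either direction, and 0 were called higher in it, by DESeq2 or by limma-voom. With the block 1 of the 8, Pkd1, was called higher, against 15.1% of tested genes. In bulk RNA, fewer cells of a type and less RNA per cell cannot be told apart.

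Each culture had 28313080 to 34183497 reads on genes, and levels are given as counts per 1000000 such reads (CPM) after TMM scaling, which evens out composition between libraries. A count of 3 was taken as the floor and equals 0.0878 to 0.106 CPM. Without molecular identifiers that floor reflects counting error alone. The epithelial markers Cdh1, Cdh16, Epcam, Krt8, Krt18 and Pax8 were all present, with summed levels of 960 to 2553 CPM in CTL and 839 to 2109 CPM after TGF-β1. Of the proximal tubule markers, the endocytic receptor Lrp2 was the highest, with 62.5 to 74.2 CPM in CTL and 28.9 to 41.9 CPM after TGF-β1. Aqp1 and Cubn had CTL means of 11.2 and 4.49 CPM. Hnf4a, Slc5a12, Slc22a8, Slc34a1, Slc22a6 and Slc5a2 were scarce, with CTL means of 0.917 CPM or less. Markers of later segments were scarce too. The 9 collecting duct markers summed to at most 8.02 CPM in any culture and the 7 of thick ascending limb and distal tubule to at most 3.75. The mean of the water channel Aqp2 was 0.0878 CPM in CTL and 0.0825 after TGF-β1. The cultures with replicate number 2 stood apart from the others in both groups. Their epithelial markers had the lowest sums, 960 and 839 CPM. In CTL replicate 2, however, Pax8 (215 CPM) and Cdh16 (251 CPM) were not the lowest, with 192 and 232 CPM in CTL replicate 3. In the replicate 2 cultures 4 Y-linked genes summed to 151 and 142 CPM, against at most 0.172 in the other cultures. The methods nevertheless name male mice as the source of such cultures.

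Promoters of 2 genes are shown here, that of Kif3a for a motif match described below and that of Cys1 as the most reduced transcript. Each line gives the 100 bases before the RefSeq start site on the gene's own strand (GRCm38.p6), 5′ to 3′. Capitals mark GTTGCC, part of the X-box bound by RFX factors, in Kif3a (chr11:53567269-53567368, plus strand). Cys1 (chr12:24681796-24681895, minus strand) had none of the motifs given below.
Kif3a: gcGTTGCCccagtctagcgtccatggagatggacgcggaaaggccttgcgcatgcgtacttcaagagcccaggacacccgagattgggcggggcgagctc
Cys1: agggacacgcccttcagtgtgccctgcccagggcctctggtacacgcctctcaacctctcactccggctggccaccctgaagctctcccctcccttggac

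The polycystins were not alike. Pkd1 (ENSMUSG00000032855.5, chromosome 17 of GRCm38, 24549834 to 24596508, plus strand) had 168, 207 and 142 CPM in CTL replicates 1, 2 and 3 and 226, 243 and 194 CPM after TGF-β1. The groups overlapped, since CTL replicate 2 lay above TGF-β1 replicate 3, but each TGF-β1 culture exceeded the CTL culture of its own number. Mean levels were 172 ± 32.4 CPM in CTL and 221 ± 24.7 CPM after TGF-β1 (SD, n = 3 each). The log2 fold change of Pkd1 was 0.36 (SE 0.15, adjusted p = 0.187, edgeR), and with the replicate block it was 0.37 (SE 0.05, adjusted p = 0.00137, edgeR). The exons of Pkd1 share 693 bp with Tsc2 on the other strand, which is 3.98% of the Pkd1 exon sequence. The strand setting of the counting is not given in the sources used here.

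Pkd2 (ENSMUSG00000034462.9, chromosome 5, 104459450 to 104505819, plus strand), which encodes the channel subunit, had 304, 242 and 223 CPM in CTL and 286, 199.7 and 231 CPM after TGF-β1. The groups overlapped, and only 2 of the 3 same-numbered pairs were lower after TGF-β1. Its log2 fold change was -0.10 (SE 0.17, adjusted p = 0.744, edgeR), with a 95% interval from -0.51 to 0.31. With the replicate block the interval narrowed to -0.25 to 0.04 (adjusted p = 0.245, edgeR), so a fall of up to 0.25 on the log2 scale remained within it.

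The balance of the 2 polycystin transcripts was also read within each culture, with levels per kb of exon. The ratio of Pkd1 to Pkd2 on the log2 scale was -1.64, -1.01 and -1.43 in CTL and -1.12, -0.50 and -1.03 after TGF-β1. Pkd2 exceeded Pkd1 in all 6 cultures, by 2.01-fold to 3.11-fold in CTL and by 1.41-fold to 2.17-fold after TGF-β1. The size of this fold depended on the length used: by coding length it was 5.27-fold to 8.15-fold in CTL and 3.70-fold to 5.69-fold after TGF-β1. Within same-numbered pairs the log2 ratio was higher after TGF-β1 by 0.52, 0.51 and 0.40. Without the pairing the group means differed by 0.48 on the log2 scale (two-sided exact permutation test, p = 0.3, where 3 cultures against 3 allow no p below 0.1).

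Pkhd1 (ENSMUSG00000043760.15, chromosome 1, 20057779 to 20618064, minus strand) had the second largest difference. It had 545, 424 and 498 CPM in CTL and 355, 229 and 341 CPM after TGF-β1. Every TGF-β1 culture was below every CTL culture, and replicate 2 was the lowest of each group. Means were 489 ± 60.9 CPM and 308 ± 69.0 CPM (SD, n = 3 each). The log2 fold change was -0.67 (SE 0.19, adjusted p = 0.0743, edgeR), and with the replicate block Pkhd1 fell by 0.69 (SE 0.07, adjusted p = 0.000247, edgeR). The fall was 0.62, 0.89 and 0.55 on the log2 scale in the pairs of replicates 1, 2 and 3. Without both replicate 2 cultures the log2 fold change was -0.58 and passed the threshold (adjusted p = 0.00584, edgeR, no block), in a fit that called 8.09% of tested genes lower.

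Cys1 (ENSMUSG00000062563.13, chromosome 12, 24665833 to 24681813, minus strand) encodes cystin, a lipid-anchored protein of the ciliary membrane whose loss causes the disease of the cpk mouse. It had 29.5, 29.2 and 19.4 CPM in CTL and 15.8, 10.5 and 14.4 CPM after TGF-β1. The groups did not overlap, and CTL replicate 3 lay well below the other CTL cultures. Means were 26.0 ± 5.73 CPM in CTL and 13.6 ± 2.74 CPM after TGF-β1 (SD, n = 3 each), resting on 321 to 966 reads per culture. Cys1 fell by 0.94 on the log2 scale (SE 0.22, adjusted p = 0.0459, edgeR), and with the replicate block the log2 fold change was -0.93 (adjusted p = 0.0129, edgeR). The call was held by a narrow margin. It was kept without CTL replicate 3 (adjusted p = 0.0279) and lost without any other single culture, at adjusted p-values of 0.0839 to 0.164 and log2 fold changes of -1.06 to -0.79 (edgeR, no block). Of all tested genes, these fits called lower 1.15%, 3.79% and 4.98% without CTL replicates 1, 2 and 3, and 1.19%, 4.28% and 3.49% without TGF-β1 replicates 1, 2 and 3.

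The 2 genes whose levels followed Cys1 most closely over the 6 cultures, among 10910 genes with a mean of at least 5 CPM, were Rfc5 and Kat6b. Pearson's r of log2 levels was 0.997 for each, over cultures that share their libraries and treatment. Kat6b, a histone acetyltransferase, fell from 70.3 to 80.0 CPM in CTL to 56.2 to 64.3 CPM after TGF-β1 (log2 fold change -0.32, adjusted p = 0.0463, edgeR). Rfc5, a subunit of the clamp loader of DNA replication, had a log2 fold change of -0.23 (adjusted p = 0.137, edgeR).

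**Figure D1:**
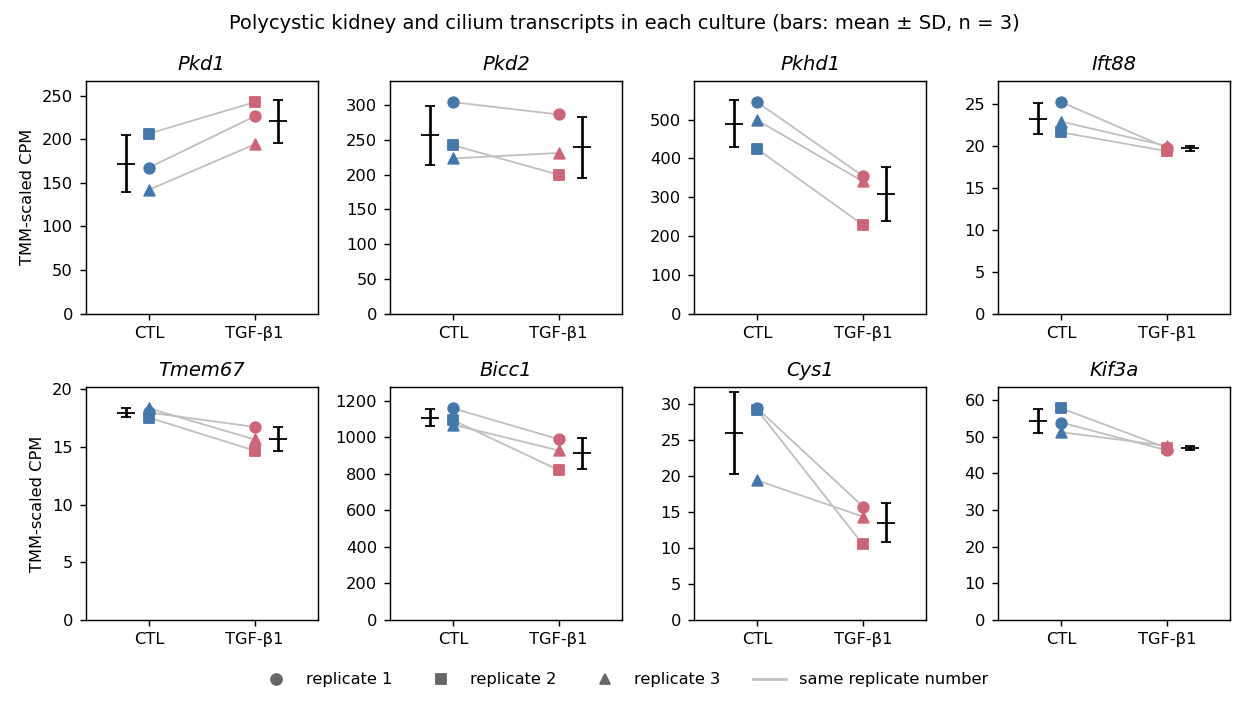
Levels of the 8 transcripts in each culture, in CPM after TMM scaling on axes that start at 0; blue points are CTL and red points TGF-β1, marker shapes give the replicate number, grey lines join cultures of the same number, and black bars are mean ± SD (n = 3). In 6 panels all TGF-β1 points lie below all CTL points, while for Pkd1 every line goes up and for Pkd2 the lines go both ways.

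Bicc1 (ENSMUSG00000014329.13, chromosome 10, 70922832 to 71159700, minus strand) was by far the most abundant of the 8. Its protein binds mRNAs and is known to act on Pkd2 and Adcy6 transcripts. It had 1159.6, 1094 and 1070.0 CPM in CTL and 990.2, 821 and 929 CPM after TGF-β1, with no overlap between groups. The log2 fold change was -0.28 (SE 0.09, adjusted p = 0.0908, edgeR), and with the replicate block Bicc1 fell by 0.28 (SE 0.06, adjusted p = 0.00744, edgeR). DESeq2 also called it lower (log2 fold change -0.28, adjusted p = 0.0387), as it did 8.61% of the genes it tested. An antisense gene with 6 to 23 counts per culture, 4930533K18Rik, overlaps 4.69% of the Bicc1 exon sequence.

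BICC1 is known to assemble with the ankyrin repeat proteins ANKS3 and ANKS6. Anks6, mutated in nephronophthisis, had 21.5, 22.2 and 21.7 CPM in CTL and 13.2, 12.2 and 14.4 CPM after TGF-β1. Anks6 fell by 0.72 on the log2 scale (SE 0.08, adjusted p = 0.00658, edgeR) with no overlap between groups. Anks3 had a log2 fold change of 0.01 (adjusted p = 0.945, edgeR); the difference between the genes was not tested. Adcy6, the adenylyl cyclase of the tubule, was named after its values were seen: its log2 fold change was -0.22 (adjusted p = 0.075, edgeR; adjusted p = 0.00507 with the replicate block).

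Ift88 and Kif3a serve intraflagellar transport, the first as a subunit of train complex B and the second as a motor subunit of kinesin-II. Ift88 (ENSMUSG00000040040.15, chromosome 14, 57424062 to 57517936, plus strand) had 25.3, 21.7 and 22.9 CPM in CTL and 19.8, 19.4 and 20.0 CPM after TGF-β1. Its log2 fold change was -0.24 (SE 0.07, adjusted p = 0.0937, edgeR), and with the replicate block Ift88 fell by 0.24 (adjusted p = 0.0256, edgeR). The 3 TGF-β1 cultures lay within a narrow band below all CTL cultures.

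Kif3a (ENSMUSG00000018395.18, chromosome 11, 53567379 to 53601967, plus strand) had 53.8, 57.7 and 51.2 CPM in CTL and 46.2, 46.9 and 47.5 CPM after TGF-β1. The groups did not overlap, and the standard deviation was 3.28 CPM in CTL and 0.623 CPM after TGF-β1. The log2 fold change was -0.21 (SE 0.06, adjusted p = 0.0666, edgeR), and with the replicate block Kif3a fell by 0.21 (adjusted p = 0.0174, edgeR). RefSeq promoter windows of 300 bases were at hand for 6 of the 8 genes. The RFX motif GTTGCC or its reverse complement GGCAAC was in the windows of Kif3a, 98 bases before the start, and of Ift88, 22 bases after it, and in 12.5% of all 32851 windows. The E-box CACCTG or CAGGTG, read by SNAI and ZEB repressors, was in the Ift88 window only of the 6 and in 20.2% of all windows. The SMAD palindrome GTCTAGAC, which is its own reverse complement, was in none of the 6 and in 0.213% of all windows. No matched letters overlapped those of another motif.

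Tmem67 (ENSMUSG00000049488.13, chromosome 4, 12039355 to 12090020, minus strand) encodes meckelin, a receptor-like protein of the transition zone, the gate at the base of the cilium. It had 18.0, 17.6 and 18.4 CPM in CTL and 16.7, 14.7 and 15.7 CPM after TGF-β1. The groups did not overlap, but the log2 fold change of -0.19 (SE 0.07) did not pass the test in the unpaired fit (adjusted p = 0.144, edgeR) or with the replicate block (adjusted p = 0.0601, edgeR). The 95% interval of the blocked fit ran from -0.35 to -0.04. Of the Tmem67 exon sequence 5.42% is shared with genes on the other strand, Rbm12b2 and Gm11842.

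**Figure D2:**
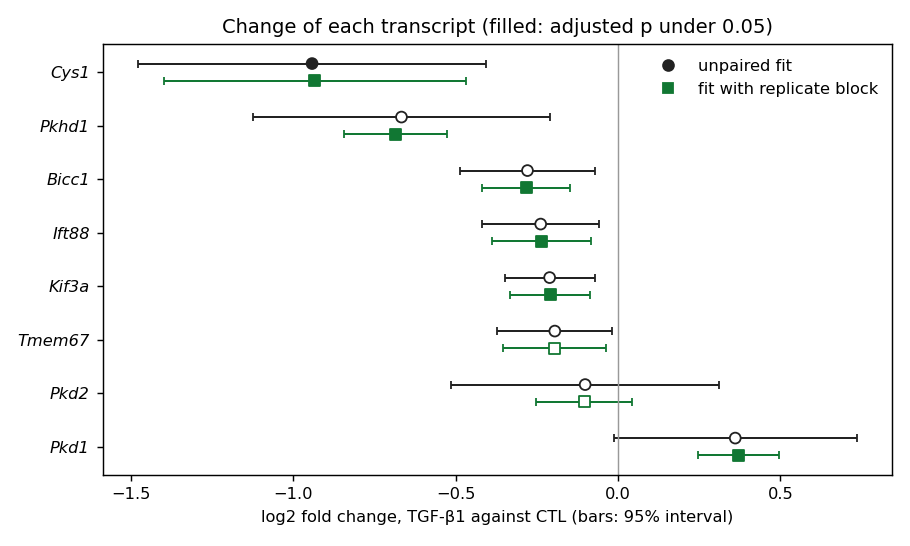
Log2 fold change of each transcript, TGF-β1 against CTL, with its 95% interval, from the unpaired edgeR fit (black circles) and the fit with the replicate number as a block (green squares); filled symbols have an adjusted p-value under 0.05. Only Cys1 is filled in the unpaired fit, and all but Tmem67 and Pkd2 are filled with the block.

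Levels of different genes were compared as CPM per kb of exon. In CTL the order was Bicc1 (149 ± 6.23), Pkhd1 (34.2 ± 4.26), Pkd2 (25.2 ± 4.16), Kif3a (15.1 ± 0.915), Pkd1 (9.88 ± 1.86), Cys1 (8.82 ± 1.94), Ift88 (5.03 ± 0.395) and Tmem67 (2.32 ± 0.052; mean ± SD, n = 3 each). The ranges of Pkhd1 and Pkd2 overlapped, as did those of Pkd1 and Cys1, so these neighbours were not told apart. After TGF-β1 Pkd2 (23.5 ± 4.32) stood above Pkhd1 (21.5 ± 4.83), again with overlapping ranges. Pkd1 (12.7 ± 1.42) lay beside Kif3a (13.1 ± 0.174) with overlapping ranges, and Cys1 (4.59 ± 0.927) overlapped Ift88 (4.26 ± 0.0672). Bicc1 remained first (123 ± 11.5) and Tmem67 last (2.03 ± 0.133). The union of annotated exons served as length, and with the longest transcript or the coding length the places between Bicc1 and Ift88 changed.

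**Figure D3:**
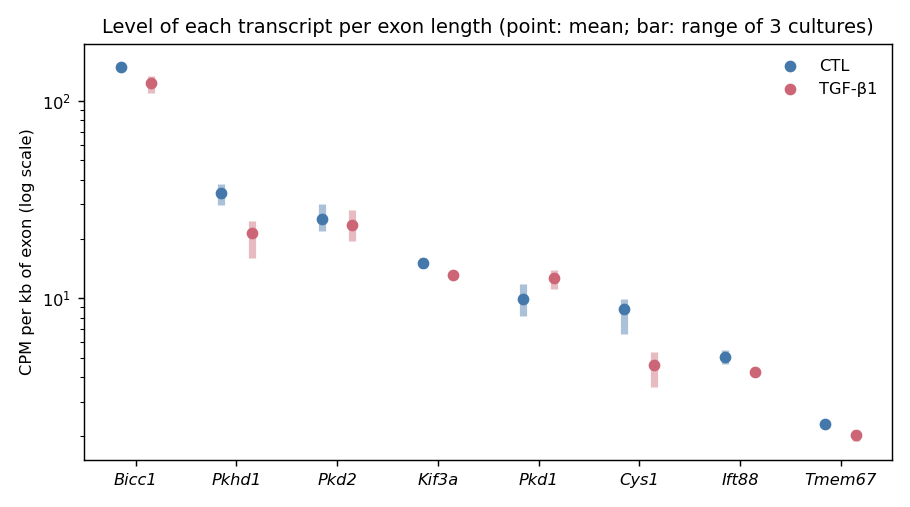
Level of each transcript in CPM per kb of exon on a log axis, for CTL (blue) and TGF-β1 (red); points are means and bars the range of 3 cultures. Bicc1 lies highest at 149 in CTL and Tmem67 lowest at 2.32, and the ranges of all but Pkd1 and Pkd2 separate between the groups.

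The rest of the cilium and cyst machinery was read from 12 lists holding 167 other genes, of which 148 were tested. Of these, 24 were called lower and 2 higher in the unpaired fit, against 6.69% and 5.00% of all tested genes. With the replicate block 53 were called lower and 8 higher, against 19.1% and 15.1% of all tested genes. These shares also stand beside the counts of each list below. The median log2 fold change was -0.13, against -0.003 over all tested genes, and it was -0.22 for the 8 genes described above. Of the 148, 104 had a log2 fold change below 0, or 70.3%, against 50.7% of all tested genes. Leaving out 1 culture, whichever it was, left 1 to 15 called lower, and without both replicate 1 cultures 0 of the 15961 genes tested were called in either direction (edgeR, no block).

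Transition zone and nephronophthisis genes, the largest list, held the most calls, 6 lower and 1 higher of 30 tested. Besides Anks6, Dcdc2a, a doublecortin family protein of the cilium, fell from 377, 281 and 404 CPM to 142, 96.5 and 161 CPM (log2 fold change -1.41, SE 0.23, adjusted p = 0.0173, edgeR). Tctn2, a tectonic protein that works in the same gate as meckelin, fell by 0.38 (adjusted p = 0.0217, edgeR). The other calls, named after their values were seen, were Tmem237, B9d1 and Cc2d2a, which were lower, and Cep83, a protein that anchors the basal body, which was higher by 0.23 (adjusted p = 0.0414, edgeR). The zinc finger gene Zfp423 had the highest log2 fold change of the list, 1.00, but its adjusted p-value was 0.271 (edgeR; 0.00248 with the replicate block). With the replicate block 12 of the 30 were called lower and 2 higher.

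Of 16 tested complex B genes other than Ift88, 1 was called lower: Ift57 fell by 0.30 on the log2 scale (adjusted p = 0.0419, edgeR). At an unadjusted p-value under 0.05 the same fit held 6 of the 16, 5 lower and 1 higher. Ttc26, Ift80 and Traf3ip1, named after their values were seen, had groups that did not overlap and log2 fold changes of -0.29, -0.28 and -0.27 (adjusted p = 0.0854, 0.0634 and 0.0647, edgeR). Of 6 complex A genes 0 were called by edgeR, DESeq2 or limma-voom, and 0 had an unadjusted p-value under 0.05 in the unpaired edgeR fit. The lowest adjusted p-value was 0.246, for Ift122, with a log2 fold change of -0.19 (edgeR). With the replicate block 4 complex B genes and 1 complex A gene were called lower and 1 complex B gene higher. Among 10 ciliary motor genes, Wdr34 and Dync2li1, both subunits of the retrograde dynein-2 motor, fell by 0.30 and 0.42 (adjusted p = 0.0422 and 0.0444, edgeR). Kif3c, which can pair with other kinesin-II subunits, rose from 94.1 ± 1.12 CPM in CTL to 112 ± 5.56 CPM after TGF-β1 (SD, n = 3 each) by 0.26 on the log2 scale (adjusted p = 0.0269, edgeR). Kif3b, the usual partner of Kif3a, had a log2 fold change of 0.01 (adjusted p = 0.93, edgeR). With the replicate block 2 of the 10 motor genes were called lower and 2 higher.

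Of 12 genes of the BBSome, the coat that sorts ciliary membrane proteins, and its assembly, 3 were called lower. Bbs2 fell from 18.2, 18.4 and 17.8 CPM to 13.3, 10.8 and 12.5 CPM (log2 fold change -0.57, adjusted p = 0.016, edgeR). Arl6, the GTPase that recruits the BBSome, and Bbs9 fell by 0.26 and 0.31 (adjusted p = 0.0425 and 0.0453, edgeR). Of 12 genes of ciliary membrane traffic, Rab3ip, the exchange factor for RAB8, and Arl13b, a ciliary GTPase, fell by 0.30 and 0.24 (adjusted p = 0.04 and 0.049, edgeR).

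The other cyst disease genes stood differently. Of 18 tested, 0 were called in the unpaired edgeR fit, by DESeq2 or by limma-voom, 4 had an unadjusted p-value under 0.05 in the edgeR fit, and the median log2 fold change was 0.05. The smallest p-value was that of Sec61b, a subunit of the translocon whose loss gives polycystic liver, with a log2 fold change of 0.28 (adjusted p = 0.0942, edgeR). With the replicate block 3 were called lower and 1 higher.

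**Figure D4:**
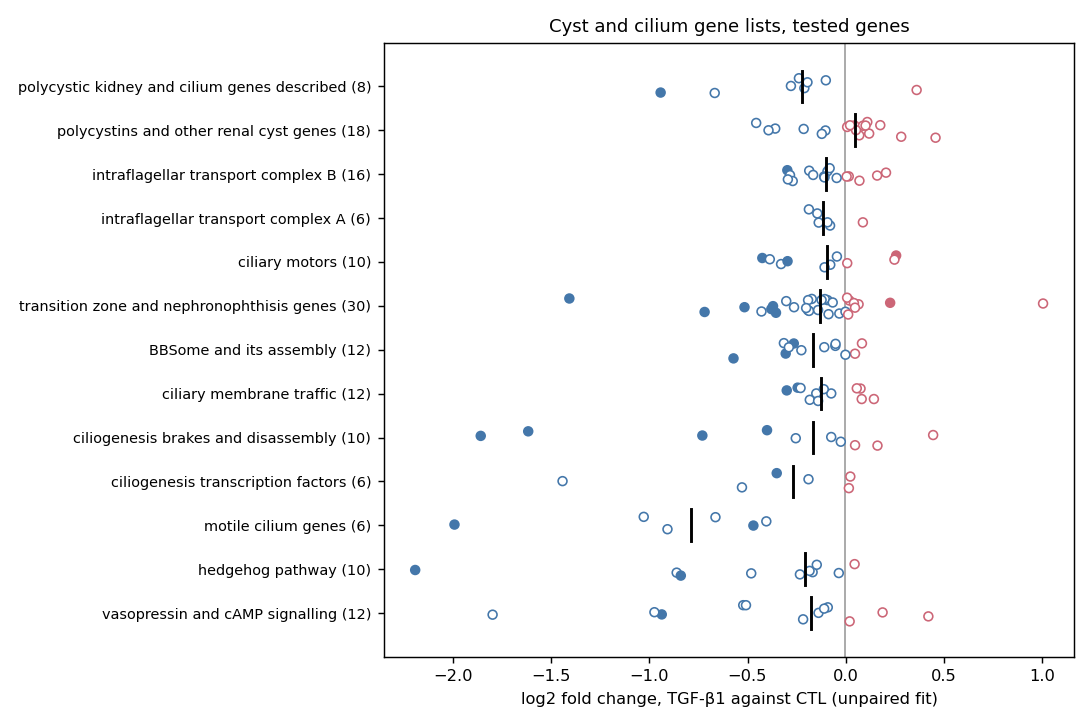
Log2 fold change (TGF-β1 against CTL, unpaired edgeR fit) of each tested gene in the cyst and cilium lists, with the number tested in brackets; blue points are below 0 and red above, filled points have an adjusted p-value under 0.05, black ticks are list medians and the grey line is the median of all tested genes. Filled blue points are found in 10 of the lists of other genes, and in the lists of other cyst genes and of complex A no point is filled.

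Of 10 tested genes that act on the start or the disassembly of the cilium, 4 were called lower. Plk1 and Nek2, mitotic kinases that promote cilium disassembly, fell by 1.86 and 1.62 (adjusted p = 0.00951 and 0.0175, edgeR), and Ccp110, a cap of the mother centriole, fell by 0.40 (adjusted p = 0.0258, edgeR). Aurka, named after its values were seen, was the fourth. With the replicate block 4 of the 10 were called lower and 1 higher. Of 12 cell cycle genes 10 were called lower, and their summed level was 156 to 194 CPM in CTL and 86.7 to 108 CPM after TGF-β1. The part of cell cycle in the results on the 8 genes was not tested.

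Transcription factors of ciliogenesis were mostly not called in the unpaired fit. Of 6 tested, Glis3, a cyst gene that also acts at the cilium, fell by 0.35 (adjusted p = 0.0311, edgeR). Rfx1 and Rfx3 had log2 fold changes of 0.02 each (adjusted p = 0.924 and 0.875, edgeR). Of 13 genes of motile cilia 7 were too low to test, and the highest, Ccdc39, had 8.19 ± 0.525 CPM in CTL (SD, n = 3). Ccdc39 and Rsph4a fell by 0.47 and 1.99 (adjusted p = 0.0408 and 0.0386, edgeR). Rsph4a went from 0.413 to 1.00 CPM in CTL to 0.119 to 0.196 CPM, near the floor. With the replicate block 4 of the 6 tested motile cilium genes and 3 of the 6 transcription factors were called lower.

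Hedgehog signalling passes through the cilium in many cells, and 2 of its 10 tested genes were called lower. Gas1, a hedgehog coreceptor, fell from 66.2, 102 and 40.1 CPM to 13.7, 19.7 and 12.3 CPM (log2 fold change -2.19, SE 0.37, adjusted p = 0.0205, edgeR). Gli2, a transcription factor of the pathway, fell by 0.84 (adjusted p = 0.0491, edgeR). With the replicate block 6 of the 10 were called lower. Named after their values were seen, the target gene and receptor Ptch1 had a log2 fold change of -0.48 (adjusted p = 0.165, edgeR; 0.000728 with the replicate block) and the ligand Dhh one of -0.86 (adjusted p = 0.0612, edgeR; 0.0077 with the replicate block), both without overlap between groups. The target gene Gli1 and the ligands Shh and Ihh were too low to test. In the vasopressin and cAMP list, 1 of 12 tested genes was called in the unpaired fit. With the replicate block 5 of the 12 were called lower and 1 higher. Cftr, the chloride channel that drives fluid into cysts, fell from 18.9, 16.9 and 15.7 CPM to 8.53, 7.98 and 10.4 CPM (log2 fold change -0.94, SE 0.13, adjusted p = 0.0107, edgeR). The vasopressin receptor Avpr2 had at most 2 counts in any culture.

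Markers of tubule identity moved in the same comparison. Cdh16, the kidney cadherin, fell by 1.50 and Pax8, a transcription factor of the nephron, by 0.77 (adjusted p = 0.00922 and 0.00436, edgeR), while the other 4 epithelial markers were not called and had groups that overlapped (4 of the 6 were called lower with the replicate block). The 9 proximal tubule markers summed to 78.0 to 94.2 CPM in CTL and 36.3 to 50.0 CPM after TGF-β1, with 2 of 5 tested genes called lower and Slc34a1 and Slc5a2 near the floor. The 7 fibroblast markers summed to 753 to 982 CPM and 900.4 to 1160 CPM, with 0 of 6 tested called (edgeR, unpaired fit, where 0 had an unadjusted p-value under 0.05; 1 higher and 2 lower with the replicate block). Summed levels of 6 endothelial markers were 36.4 to 51.9 CPM and 22.8 to 35.2 CPM, those of 6 leukocyte markers 9.06 to 20.5 CPM and 6.41 to 17.2 CPM, and those of 5 podocyte markers 446 to 683 CPM and 358 to 417 CPM. Of these, 1 leukocyte gene was called lower in the unpaired edgeR fit. Of 3 tested endothelial genes 0 were called (1 at an unadjusted p-value under 0.05), as were 0 of 3 podocyte genes (2 at an unadjusted p-value under 0.05), and with the replicate block 1 and 3 were called lower (edgeR). The part of cell mixture in the results on the 8 genes was not tested.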

How the data were processed

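The authors deposited read counts per gene, made from single-end 50-bp reads of poly(A) mRNA (100 ng of RNA) that were trimmed with Trim Galore, aligned to GRCm38 with STAR 2.4.1d and counted with HTSeq 0.6.1. The deposited counts carry no normalization. Reads on no gene, on more than 1 gene or aligned to more than 1 place were 25.4% to 25.9% of those listed and stayed out of all totals. Symbols, positions and exon lengths came from GENCODE M21, which matched 46005 of 46517 identifiers, and all list symbols matched. Promoter windows came from RefSeq (GRCm38.p6) and covered 6 of the 8 genes. A withheld item is not reported here.

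The main test was the two-sided quasi-likelihood test of edgeR 4.0.16 (R 4.3.3; filterByExpr, TMM, robust glmQLFit, glmQLFTest). Its p-values were adjusted by Benjamini-Hochberg across the 15862 genes kept, and a gene was called at an adjusted p below 0.05. CPM are TMM-scaled, and standard errors come from the F statistic. The 8 genes and the lists were chosen with earlier results of these data known. From each list up to 3 called genes were named by adjusted p-value, or the 1 with the smallest p-value. For each of the 8 genes that was called, the 2 genes of most similar level were named.

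For replicate numbers 1, 2 and 3, deviations of the CTL and the TGF-β1 culture from their group means had correlations of 0.445, 0.738 and 0.648 across genes, while cultures of unlike number gave -0.688 to 0.289, so the numbers were taken as pairs. The chi-square of counts was at least 9.02 per degree of freedom for any 2 libraries. Alternatives were DESeq2 1.42.0, limma-voom (limma 3.58.1), RLE or library size scaling, other filters, down-sampling, the replicate block, a threshold of 0.01, other gene lengths and leaving out cultures. Figures used matplotlib 3.10.9.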

Additional observations from a re-analysis of the deposited data

How the results depend on the processing

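Where cultures were left out the fit was unpaired; for every change listed the cause was not tested. With the replicate block the log2 fold changes of Pkd1 (0.37), Pkhd1 (-0.69), Ift88 (-0.24), Bicc1 (-0.28) and Kif3a (-0.21) passed the threshold, and after down-sampling as well the replicate block gave 0.37, -0.68, -0.25, -0.28 and -0.22. The block changed no other call of the 8 genes. DESeq2 called Pkhd1 (-0.66) and Bicc1 (-0.28), library size only called Kif3a (-0.28), and leaving out both replicate 2 cultures called Pkhd1 (-0.58). Cys1 was no longer called with limma-voom (-0.94), when the filter was dropped beyond 1 count (-0.94), at a threshold of 0.01 (-0.94), and without both cultures of replicate 1, 2 or 3 (-0.97, -0.70 and -1.16). With single cultures left out, Cys1 had log2 fold changes from -1.11 to -0.79 and Pkd2 values from -0.25 to 0.038. Pkd2 lay above 0 when CTL replicate 1 (0.038) or TGF-β1 replicate 2 (0.0077) was absent. Each of the other genes kept its direction under all 18 other fits.

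Against 1 of the 8 genes called lower and 0 higher, the replicate block gave 5 and 1, also after down-sampling. DESeq2 gave 3 lower, library size only 2, and no filter beyond 1 count, limma-voom and the threshold of 0.01 gave 0. Of all tested genes, DESeq2 called 8.61% lower, library size only 9.25% and no filter beyond 1 count 3.63%. The share was 6.47% with limma-voom and 1.21% at the threshold of 0.01. Leaving out 1 culture gave 0 to 1 lower, where 1.15% to 4.98% of all tested genes were called lower. Leaving out both cultures of replicate 1 or 3 gave 0, where 0% and 1.19% of all tested genes were called lower. Of the other listed genes, 24 were called lower and 2 higher. The replicate block gave 53 and 8, and 53 and 7 after down-sampling. The threshold of 0.01 gave 2 and 0. Library size only, no filter beyond 1 count and down-sampling each gave 1 higher, against 3.20%, 2.68% and 4.90% of all tested genes. Leaving out 1 culture gave 1 to 15 lower, lowest without CTL replicate 1, and 0 to 1 higher. Without both replicate 1 cultures the counts were 0 and 0, and without both replicate 3 cultures 2 and 0. Library size only moved the median of all genes by -0.07.

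The log2 ratio of Pkd1 to Pkd2 was -1.36 in CTL and -0.88 after TGF-β1 per kb of exon. It was -2.02 and -1.54 by the longest transcript and -2.75 and -2.27 by coding length. Of the 8 places in the order of levels in CTL, 4 were the same by the longest transcript and 3 by coding length, and after TGF-β1 5 were the same by coding length.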
